A study of Mus musculus with 6 samples.

Results

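The miR-30 family was followed here in exosomes released by HN9.10e cells, through the 6 rows of the miRNA count table that carry the names Mir30a, Mir30b, Mir30c-1, Mir30c-2, Mir30d and Mir30e in GENCODE M21, out of 1973 rows in all. HN9.10e is an immortalized line of mouse embryonic hippocampal neurons of wild type genotype, grown in medium with 10% fetal bovine serum. The control libraries came from exosomes of untreated cells and the Cer libraries from exosomes of cells given 100 nM ceramide, for which the study lists C6-ceramide, a short-chain form, among its reagents. In each group exosomes were collected after 48 h and 3 small RNA libraries were sequenced. The line is a single immortalized population, so no library stands for an animal. The comparison asked which exosomal miRNAs change when the releasing cells receive ceramide.

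A miRNA hairpin is cut by Drosha and Dicer into a 5p and a 3p strand, and a mature strand loaded on an Argonaute protein finds its target mRNAs mainly through its seed, bases 2 to 8 from the 5′ end. The members of the miR-30 family share the seed of their 5p strand and so recognize overlapping sets of targets, while their 3p strands and the rest of the 5p strands differ. The family is widely expressed, is known for holding cells in an epithelial state, and miR-30a in particular is known as a regulator of the autophagy protein Beclin 1 and of the neurotrophin Bdnf.

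The mature 5p sequences are shown because the shared seed is what makes these rows a family, and because the bases outside it tell the members apart. Entries of RefSeq (GRCm38.p6) were matched for 4 of the 6 hairpins. Mir30b and Mir30d had no mature entry in the RefSeq table used, so they are not shown and could not enter the count of entries below. The seed is in capitals.
miR-30a-5p: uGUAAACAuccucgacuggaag
miR-30e-5p: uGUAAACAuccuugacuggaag
miR-30c-5p: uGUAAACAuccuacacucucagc
miR-384-5p: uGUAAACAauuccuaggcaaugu
Counting from 1 at the 5′ end, miR-30e-5p differed from miR-30a-5p by C13U alone over 22 positions, and miR-30c-5p differed from it by C13A, G14C, G18C, G19U and A20C. Of 1738 mature entries in the RefSeq table, 5 carried this seed, which are those of Mir30a, Mir30c-1, Mir30c-2, Mir30e and, outside the family, Mir384. The 3p strands fell into a pair of seeds.
miR-30a-3p: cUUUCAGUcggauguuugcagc
miR-30e-3p: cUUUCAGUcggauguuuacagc
miR-30c-1-3p: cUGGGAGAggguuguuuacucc
miR-30c-2-3p: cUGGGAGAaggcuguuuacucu
The 3p strands of Mir30a and Mir30e differed by G18A alone, and those of Mir30c-1 and Mir30c-2 by G9A, U12C and C22U. A row counts the 5p and 3p strands of its hairpin together, so the strands could not be separated in the values that follow.

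The hairpins lie in pairs at 3 places of GRCm38. On chromosome 1, plus strand, Mir30a lies from 23272269 to 23272339 in no other annotated gene, and Mir30c-2 lies from 23291701 to 23291784 inside an exon of Gm27028, a long noncoding RNA, with 19361 bases between them. On chromosome 4, minus strand, Mir30e (120772606 to 120772697) and Mir30c-1 (120769534 to 120769622) lie in introns of Nfyc, which encodes a subunit of the transcription factor NF-Y, with 2983 bases between them. On chromosome 15, minus strand, Mir30d (68341208 to 68341289) lies in exons of the noncoding genes Gm20732 and Gm37296, and Mir30b (68337415 to 68337510) overlaps an exon of Gm26621, with 3697 bases between them. Mir30f, annotated on the plus strand and overlapping Mir30e, was not analysed here. The use of strand in the counting is not given in the sources used here.

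The total count ranged from 972344 to 1393282 in control and from 800810 to 2760015 in Cer libraries. All 6 members passed the filter on low counts, together with 412 other rows. By the lane numbers in the labels, control replicate 1 and Cer replicate 1 carried lane 1, the other control libraries lane 4 and the other Cer libraries lane 2. Outside lane 1 the lane and the treatment therefore cannot be told apart. A fit with the lane as a term thus rests on the lane 1 pair, 1 library a group, with the spread taken from the other libraries. The labels name no flow cell, and both lane 1 libraries carry the same sample number, so a shared run of this pair is not shown. As a check of the cell type, 15 rows of neuronal miRNAs were looked up, and every row had counts. So had every row found for the epithelial and the blood, liver and muscle miRNAs below, so having counts cannot show the cell type. The strictly neuronal miR-124 was low in control exosomes. Mir124a-1 had a mean of 19.96 ± 0.967 CPM there, against 3930 ± 511 CPM for Mir138-1 (normalized CPM, SD, n = 3 each). Normalized CPM is the count of a row per unit of the scaled total of its library.

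Mir30d and Mir30a, the most abundant members, fell by 37.1% and 27.3% in exosomes of Cer-treated cells, while Mir30e, both Mir30c rows and Mir30b did not pass the test. Rows were called at a log2 fold change of 0.6 or more in either direction with an adjusted p (Benjamini-Hochberg, quasi-likelihood test of edgeR) of 0.05 or less. By this rule 1 of the 6 members, Mir30d, was called and was lower, against 8.37% of all rows tested called lower, 3.11% called higher and 11.5% called in either direction. With the p threshold alone 2 of the 6 were lower and 0 higher, against 12.7% and 7.18% of all rows and 19.9% in either direction. DESeq2 and limma-voom also passed 2 members each in either direction, against 20.8% and 21.8% of all rows, and 2 had an unadjusted p of at most 0.05 in edgeR, against 36.6% of all rows. In 3 of the 6 members the Cer libraries lay below all control libraries, against 25.1% of all rows, and in 0 they lay above, against 14.1%. The log2 fold change was below 0 for 4 of the 6 members, against 50.7% of all rows, and its median was -0.069 over the members and -0.0077 over all rows tested.

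Mir30d was the most abundant member and gave the clearest difference. Its normalized CPM after TMM scaling was 4645, 4141 and 4331 in control replicates 1, 2 and 3, and 2733, 2782 and 2741 in Cer replicates 1, 2 and 3. All Cer libraries lay far below all control libraries and within a narrow band, with means of 4373 ± 255 CPM and 2752 ± 26.1 CPM (SD, n = 3 each). In edgeR this was a log2 fold change of -0.67 (SE 0.076, 95% interval -0.85 to -0.49, adjusted p = 0.0026), the 7th lowest p of the 418 rows tested. The study listed Mir30d among its changed miRNAs from these same libraries, so its call here is no independent evidence. The log2 fold change stayed close to the threshold of 0.6, and Mir30d lost the call under DESeq2's size factors (-0.59), with a mean count of at least 50 (-0.58) and with DESeq2 on the same rows (-0.59), each time with an adjusted p of at most 0.0037.

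Mir30a, whose 5p strand is the member named above as a regulator of Bdnf, had 2940, 3014 and 2877 CPM in control replicates 1, 2 and 3. It had 2091, 2320 and 2004 CPM in Cer replicates 1, 2 and 3. The groups did not overlap, as in 39.2% of all rows tested. The means were 2943 ± 68.8 CPM and 2138 ± 163 CPM (SD, n = 3 each), which edgeR gave as -0.46 on the log2 scale (SE 0.085, 95% interval -0.66 to -0.26, adjusted p = 0.010). Mir30a therefore passed the test of the difference but not the fold threshold. Its adjusted p rose above 0.05 without control replicate 1 or control replicate 2 (0.056 each), with upper-quartile factors (0.056), with no filter (0.064) and with the lane as a term, which leaves the lane 1 pair (0.13).

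Mir30e differs from Mir30a by a single base in each mature strand. It had 831, 847 and 832 CPM in control replicates 1, 2 and 3, and 804, 781 and 708 CPM in Cer replicates 1, 2 and 3. The Cer libraries again lay below the control libraries without overlap, but the gap was small, and Cer replicate 3 was the lowest. The log2 fold change of -0.13 (SE 0.089, 95% interval -0.34 to 0.079) missed the threshold in edgeR (adjusted p = 0.31).

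The rows of Mir30c-1 and Mir30c-2 are not independent measurements. Both hairpins release the same miR-30c-5p, and the count of Mir30c-1 was 5.64% to 11.7% below that of Mir30c-2 in each library. Mir30c-2 had 487, 538 and 571 CPM in control and 602, 581 and 477 CPM in Cer replicates 1, 2 and 3. Mir30c-1 had 457, 497 and 539 CPM in control and 543, 524 and 421 CPM in Cer replicates 1, 2 and 3. The groups overlapped for both, and Cer replicate 3 was the lowest library of all while Cer replicate 1 was the highest. In edgeR the log2 fold change was 0.054 for Mir30c-2 (SE 0.12, 95% interval -0.24 to 0.35, adjusted p = 0.76) and -0.0073 for Mir30c-1 (SE 0.13, 95% interval -0.31 to 0.30, adjusted p = 0.98). The sign of either value depended on the setting, with Mir30c-1 at 0.067 and Mir30c-2 at 0.13 under DESeq2's size factors and at -0.089 and -0.028 under library size alone.

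Mir30b, the neighbour of Mir30d, was the least abundant member. It had 251, 264 and 280 CPM in control replicates 1, 2 and 3, and 353, 306 and 267 CPM in Cer replicates 1, 2 and 3. Cer replicates 1 and 2 lay above every control library, and Cer replicate 3 lay between control replicates 2 and 3. The log2 fold change of 0.21 (SE 0.13, 95% interval -0.091 to 0.52, adjusted p = 0.27 in edgeR) did not pass. Without Cer replicate 1 it was 0.093.

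**Figure D1:**
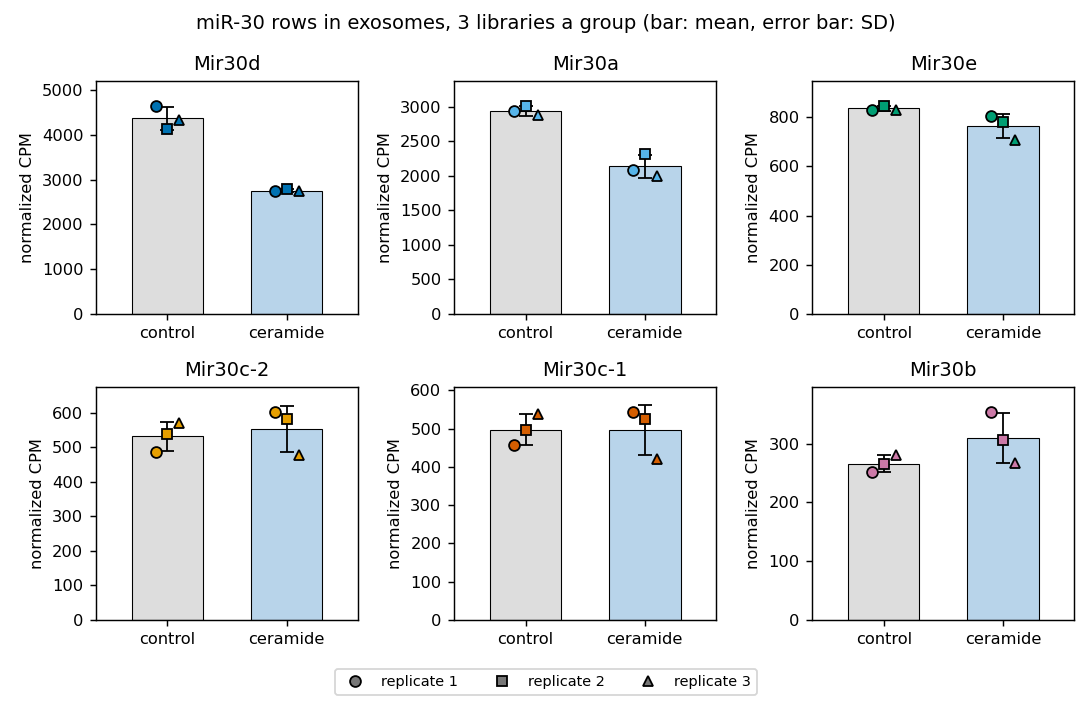
Normalized CPM (vertical axes, from 0) of each miR-30 row in the 3 control and 3 ceramide libraries, with bars for the mean, error bars for the SD and a symbol for each replicate number. Mir30d falls from 4373 to 2752 CPM and Mir30a from 2943 to 2138 CPM with no overlap, whereas the libraries of the groups overlap for Mir30c-2, Mir30c-1 and Mir30b.

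**Figure D2:**
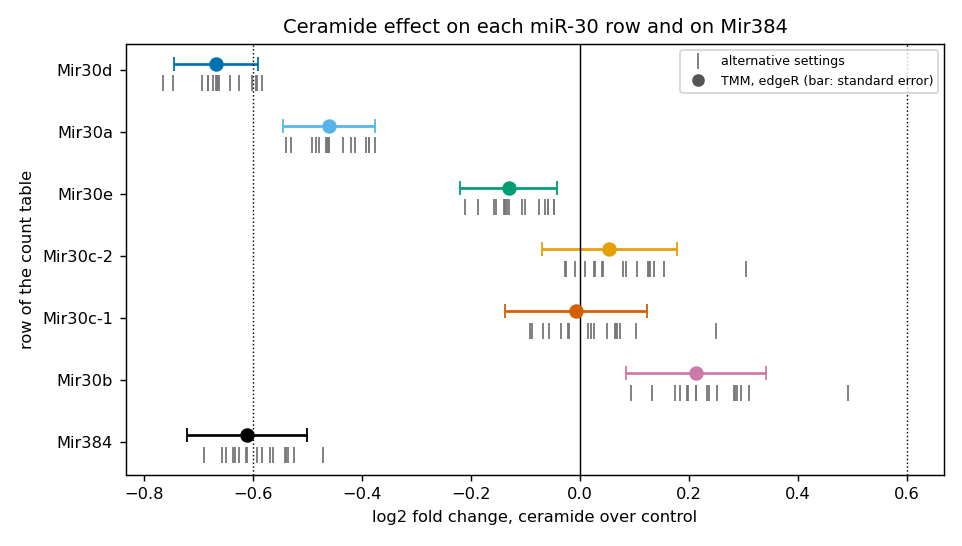
Log2 fold change (ceramide over control, horizontal axis) of the 6 miR-30 rows and of Mir384, as points with standard errors for the TMM and edgeR fit and as ticks for the alternative settings. Dotted lines mark the threshold of 0.6; the ticks of Mir30d lie between -0.77 and -0.58 and those of Mir30a between -0.54 and -0.38, while the ticks of both Mir30c rows lie on either side of 0.

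Libraries with the same replicate number deviated together over all rows, and within each number Mir30d, Mir30a and Mir30e were lower in Cer. The difference in CPM of Mir30d was -1913, -1359 and -1590 in replicates 1, 2 and 3, and that of Mir30a was -849, -694 and -873. The difference of Mir30e was smaller, at -27.0, -65.8 and -124 CPM. Mir30c-1 and Mir30c-2 were higher in Cer in replicates 1 and 2 and lower in replicate 3, and so was Mir30b. Replicate 1 is also the pair that shares the lane number 1. With the replicate number as a block no member gained or lost its call, although 87 rows of the table were called against 48 without it.

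Levels of the members were compared per kb of hairpin, as CPM per kb. In control exosomes they ran from 53323 ± 3107 for Mir30d and 41457 ± 969 for Mir30a through 9095 ± 95.2 for Mir30e, 6330 ± 502 for Mir30c-2 and 5590 ± 458 for Mir30c-1 to 2765 ± 150 for Mir30b (SD, n = 3). In Cer exosomes the order was the same, from 33559 ± 318 for Mir30d to 3219 ± 449 for Mir30b. In each group the libraries of neighbours in this order did not overlap, except those of Mir30c-2 and Mir30c-1. In normalized CPM without the length, the order was the same in both groups. The highest member then exceeded the lowest 16.5-fold in control and 8.90-fold in Cer exosomes. The mature strands printed above have 22 or 23 bases, so counts need not scale with the length of the hairpin.

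Whether members changed unequally was tested on the ratio of each member to the sum of the other 5 in the same library, which needs no normalization factor. The log2 ratio differed between groups by -0.41 for Mir30d, 0.67 for Mir30b, 0.52 for Mir30c-2, 0.45 for Mir30c-1 and 0.33 for Mir30e, and for these 5 members the groups did not overlap (exact permutation test, two-sided, p = 0.1 each, the smallest p that 3 against 3 libraries allow, adjusted p = 0.12 over the 6 members). With this smallest p none of these differences could pass. For Mir30a the difference was -0.047 (exact permutation p = 0.5, adjusted p = 0.5). Against the geometric mean of the others, in which each member has equal weight, the differences were -0.60 for Mir30d, -0.35 for Mir30a, 0.26 for Mir30c-2 and 0.46 for Mir30b (exact permutation p = 0.1 each), but 0.19 for Mir30c-1 (exact permutation p = 0.2) and 0.043 for Mir30e (exact permutation p = 0.5). Which members stood apart thus depended on the reference, for Mir30a, Mir30c-1 and Mir30e. Mir30d and Mir30a held most of the counts of the family, so a fall in these rows by itself raises the ratio of every other member to the sum. The ratio of Mir30e to the sum was higher in Cer, while its own log2 fold change in edgeR was -0.13. Mir30d kept 46.3 ± 1.92% of the counts of the family in control and 39.3 ± 1.84% in Cer exosomes, Mir30a 31.2 ± 1.07% and 30.5 ± 1.25%, and Mir30b 2.81 ± 0.180% and 4.4 ± 0.491% (SD, n = 3 each).

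**Figure D3:**
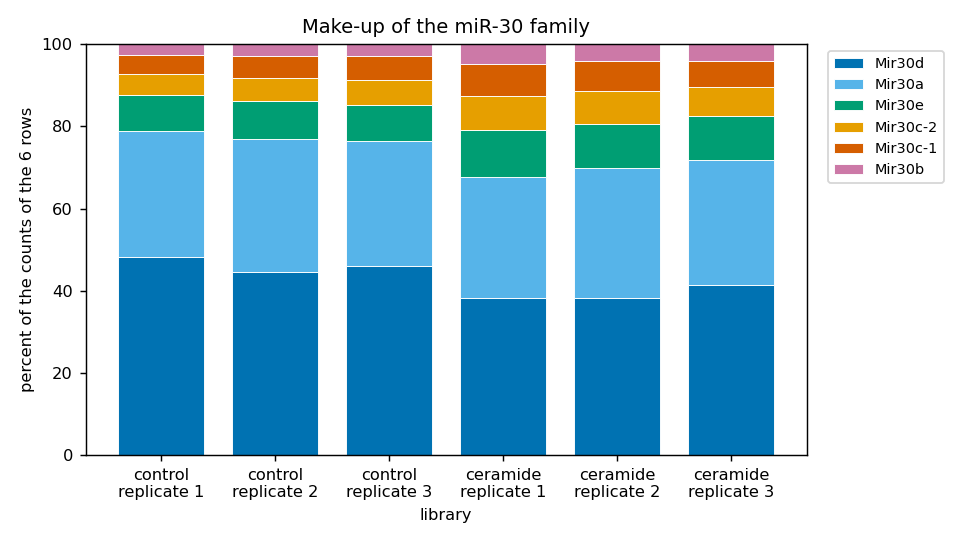
Percent of the counts of the 6 miR-30 rows (vertical axis) held by each row in each library (horizontal axis). The share of Mir30d is 44.5% to 48.3% in control and 38.1% to 41.4% in ceramide libraries, and the shares of Mir30e, both Mir30c rows and Mir30b are wider in every ceramide library than in any control library. The shares of a library add up to the whole, so a smaller share of Mir30d leaves more for the other rows.

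Ratios of pairs of rows were also compared, a choice made after the values had been seen, with 6 pairs tested. The Mir30d to Mir30b ratio at the chromosome 15 locus was 18.5, 15.7 and 15.5 in control replicates 1, 2 and 3, and 7.73, 9.08 and 10.3 in Cer replicates 1, 2 and 3. The groups did not overlap, with a mean ratio of 16.5 ± 1.69 in control and 9.02 ± 1.26 in Cer exosomes (SD, n = 3 each, exact permutation p = 0.1, adjusted p = 0.12). That p is the smallest that 3 against 3 libraries allow, so no pair could pass the test. The Mir30a to Mir30c-2 ratio at the chromosome 1 locus went from 5.56 ± 0.50 to 3.89 ± 0.375 (SD, n = 3 each, exact permutation p = 0.1, adjusted p = 0.12), also without overlap. At the chromosome 4 locus the Mir30e to Mir30c-1 ratio was 1.69 ± 0.138 and 1.55 ± 0.113 with overlapping groups (SD, n = 3 each, exact permutation p = 0.2). The Mir30a to Mir30e ratio, of rows whose 5p strands differ only by C13U, was 3.52 ± 0.0535 in control and 2.8 ± 0.188 in Cer exosomes (SD, n = 3 each, exact permutation p = 0.1, adjusted p = 0.12). The Mir30d to Mir30a ratio was 1.49 ± 0.104 and 1.29 ± 0.0857 (SD, n = 3 each, exact permutation p = 0.1, adjusted p = 0.12). The Mir30c-2 to Mir30c-1 ratio, of rows that share miR-30c-5p, was 1.069 ± 0.0113 and 1.116 ± 0.0143 with the same p and adjusted p and also without overlap.

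**Figure D4:**
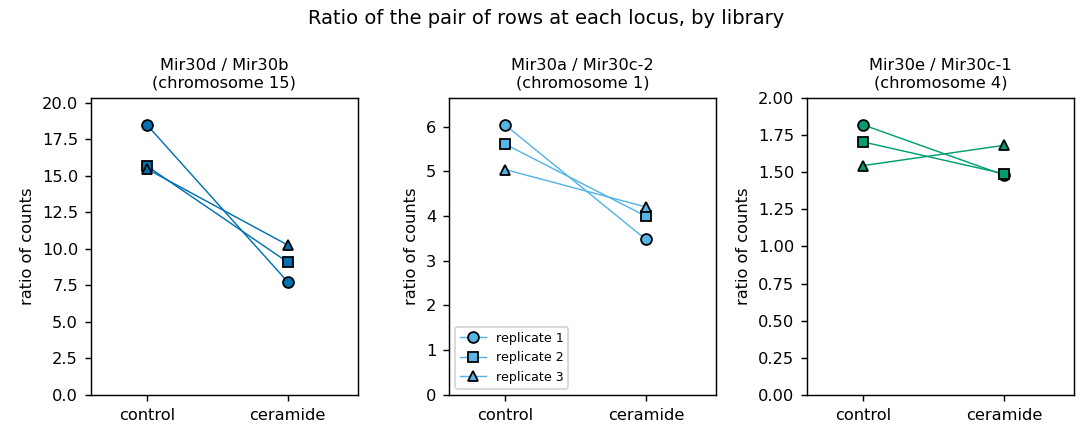
Ratio of the counts of the pair of miR-30 rows at each locus (vertical axes, from 0) in control and ceramide libraries, with lines joining libraries of the same replicate number. The Mir30d to Mir30b ratio lies at 15.5 or above in every control library and at 10.3 or below in every ceramide library, and the Mir30e to Mir30c-1 ratios overlap.

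The family as a whole held 0.991%, 0.939% and 0.981% of all counts in control replicates 1, 2 and 3, and 0.685%, 0.698% and 0.661% in Cer replicates 1, 2 and 3. The widest 95% Wilson interval, that of control replicate 1, ran from 0.971% to 1.01%, and such intervals cover counting error only. The share was lower in every Cer library, with means of 0.970 ± 0.0276% and 0.681 ± 0.0186% (SD, n = 3 each, exact permutation p = 0.1, the smallest p possible). As a share of the counts without the 10 most abundant rows it was 1.77 ± 0.0337% and 1.4 ± 0.0561%, and without rows of the let-7 family 1.16 ± 0.0251% and 0.876 ± 0.0268% (SD, n = 3 each). Joined into a row of their own in the edgeR fit, the 6 rows had 9448 ± 147 CPM in control and 7014 ± 388 CPM in Cer exosomes (SD, n = 3 each), or -0.43 on the log2 scale (SE 0.074, adjusted p = 0.0075 in edgeR), short of the fold threshold. With miR-30c counted once it was -0.46, and in the fit with the lane, which rests on the lane 1 pair, it was -0.43 with an edgeR adjusted p of 0.13. These values are relative to the other miRNAs of a library. Fewer vesicles with miR-30, fewer copies per vesicle and a rise of other miRNAs with miR-30 unchanged therefore cannot be told apart.

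Mir384, which lies on chromosome X and is known as a brain miRNA, is the row outside the family whose 5p entry in the RefSeq table carries the miR-30 seed. It had 121, 133 and 132.4 CPM in control replicates 1, 2 and 3, and 87.1, 86.4 and 80.0 CPM in Cer replicates 1, 2 and 3. The groups did not overlap, and edgeR gave a log2 fold change of -0.61 (SE 0.11, adjusted p = 0.0088), just past the threshold. Mir384 was called in 7 of 17 alternatives, with the same sign in all 17. Its adjusted p was above 0.05 with no filter (0.052), with DESeq2 on every row with a count (0.071) and in the lane fit (-0.47, adjusted p = 0.22). Without control replicate 2, control replicate 3 or Cer replicate 3 the log2 fold change of Mir384 was -0.56, -0.59 and -0.57, under the threshold.

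The rows whose normalized level followed the joined family most closely over the 6 libraries were Mir25, Mir465c-1 and Mir465c-2, each with a Pearson r of 0.99 on log2 CPM. The Mir465c rows held identical counts. All 3 were lower in Cer, with log2 fold changes of -0.62 for Mir25 and -0.56 for the Mir465c rows, and since the 6 points fall into the 2 groups, r is given as a description only.

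**Figure D5:**
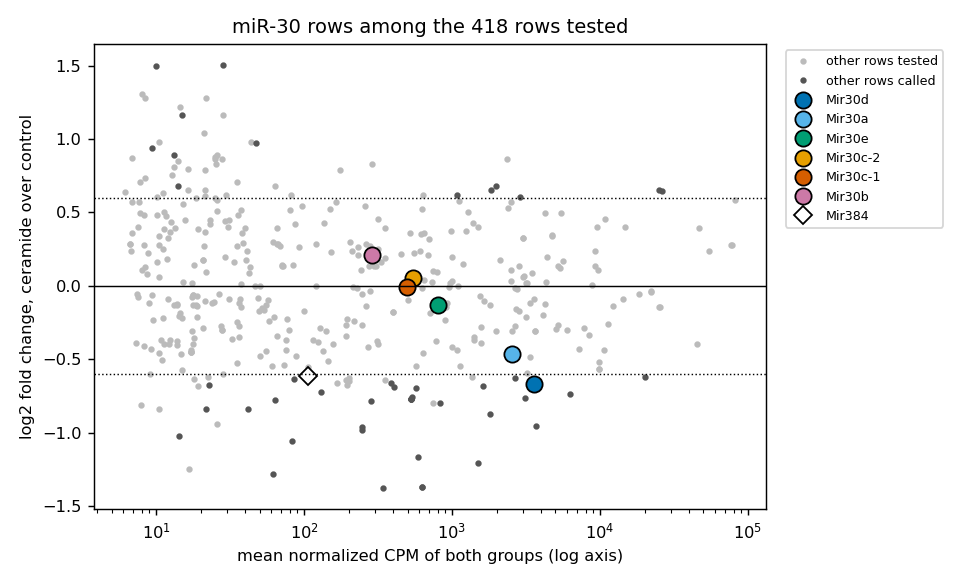
Log2 fold change (ceramide over control, vertical axis) against the mean normalized CPM of both groups (horizontal axis, log scale) for the 418 rows tested, with the miR-30 rows in colour, Mir384 as a diamond and dotted lines at 0.6 and -0.6. The miR-30 rows run from Mir30b at 0.21 to Mir30d at -0.67, and the abundant rows Mir30d and Mir30a lie below the other miR-30 rows.

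Lists of miRNAs with related roles were looked up beside the family. Of 6 epithelial miRNAs of the miR-200 family and miR-205, 3 were abundant enough to be tested. Of these 3, 0 passed in edgeR, DESeq2 or limma-voom, against 19.9%, 20.8% and 21.8% of all rows. In edgeR 1 of the 3 had an unadjusted p of at most 0.05, against the 36.6% of all rows given above. Their log2 fold changes were 0.14 for Mir200b (SE 0.11), 0.14 for Mir429 (SE 0.10) and -0.38 for Mir200a (SE 0.11, adjusted p = 0.056 in edgeR). Of 8 miRNAs known, like miR-30a, as regulators of Bdnf, 6 were tested, 2 were higher with an adjusted p of at most 0.05 in edgeR, against 7.18% of all rows, and 0 were called. DESeq2 and limma-voom passed 3 each, against 20.8% and 21.8% of all rows, and 4 had an unadjusted p of at most 0.05 in edgeR, against 36.6%. The median log2 fold change of the 6 was 0.29, against -0.0077 over all rows. The 2 were Mir16-1 and Mir16-2, with log2 fold changes of 0.28 each and edgeR adjusted p of 0.038 and 0.039. Both encode the same miR-16, with nearly equal counts of 753601 and 749468 over the libraries, and are not independent.

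Markers of other sources were looked at beside these results. Of 11 blood, liver and muscle miRNAs, which fetal serum can bring in, 8 were found and 6 were tested. Of these 6, 0 passed in edgeR or DESeq2, against 19.9% and 20.8% of all rows, and 1 in limma-voom, against 21.8%. In edgeR 2 had an unadjusted p of at most 0.05, against 36.6%. They were Mir223 (log2 fold change 0.58, edgeR adjusted p = 0.055) and Mir122 (0.39, edgeR adjusted p = 0.064), both higher in Cer. Only Mir133a-1 and Mir133a-2, with equal counts, were below 0, and the median of the 6 was 0.20. The summed level of the 8 was 180 to 197 CPM in control and 193 to 236 CPM in Cer libraries. The names Mir486a, Mir486b and Mir142 had no row, so this sum leaves out the related rows Mir486 and Mir142b. Mir486 had 268 ± 25.5 CPM in control and 221 ± 39.9 CPM in Cer exosomes, more than the sum in control. Mir142b had 26.2 ± 4.25 CPM and 34.7 ± 2.72 CPM (SD, n = 3 each). None of the 8 was at 0 counts, and Mir208a and Mir208b, markers of heart and slow muscle, had 1 and 6 counts over all libraries. The summed neuronal rows were lower in Cer, at 8963 to 10158 CPM in control and 6843 to 7407 CPM in Cer libraries, with 4 of 15 rows lower at an adjusted p of at most 0.05 and 0 higher in edgeR, against 12.7% and 7.18% of all rows. DESeq2 and limma-voom passed 4 each, against 20.8% and 21.8%. The 4 were Mir138-1, Mir128-1, Mir128-2 and Mir153, named after their values were seen. The log2 fold change was below 0 for 11 of the 15 rows, against 50.7% of all rows. The rows are not independent: Mir124a-1, Mir124a-2 and Mir124a-3 had 160, 159 and 159 counts over the libraries, and Mir9-2 and Mir9-3 had 680 and 683. The largest rows of the sum were Mir138-1 (3930 CPM in control, 2315 CPM in Cer) and Mir138-2 (3381 and 2918 CPM). It was above 0 for Mir137 (0.24), Mir9-2 and Mir9-3 (0.14 each) and Mir219a-2 (0.61), none of which passed in edgeR. Mir138-2 was at -0.21 (adjusted p = 0.26 in edgeR). The part of either source in the miR-30 values was not tested, and reads of bovine and mouse miRNAs with the same mature sequence cannot be told apart in these counts.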

How the data were processed

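Small RNA of exosomes was sequenced with the QIAseq miRNA kit in 3 control and 3 Cer libraries. Per the labels and methods the authors trimmed reads with cutadapt 1.15, used STAR 2.5.3a for alignment to GRCm38, assigned them to GENCODE miRNA genes with GeneCounts and deposited raw counts per hairpin gene. The GENCODE release, the use of strand, reads that align to several places and the molecular identifiers are not given in the sources used here, so whether counts are of reads or molecules is unknown. Of 1973 rows, 1894 had an Ensembl identifier in GENCODE M21, the source of symbols and positions.

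Conditions came from the labels. The counts were fitted with edgeR 4.0.16 (R 4.3.3) with TMM factors, on 418 rows kept by filterByExpr, with condition as the only term, and p-values were adjusted over all 418 rows. Log2 CPM used a prior count of 2 and ratios of counts a pseudocount of 0.5 (none for pairs of rows). Exact permutation tests used scipy 1.17.1. Alternatives were other factors, filters, DESeq2 1.42.0, limma-voom (limma 3.58.1), the replicate block, the lane, joined Mir30c rows, other denominators and leaving out each library. All members were named, with the 3 rows most like the joined row and up to 3 rows a list by counts. The members and lists were chosen with earlier results of these data known. The procedure was tested on simulated counts.

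The labels do not say that a replicate number marks a shared experiment. Deviations from the group means correlated at 0.59, 0.43 and 0.75 between libraries with the same number and at -0.59 to 0.10 between the others. Deviations cancel out within a group, so positive values for the same number push the others down, and the contrast is partly built in. On the basis of these correlations, libraries with the same number were taken as pairs in the replicate block and in the differences within a number. The main fit and the exact permutation tests left the pairing out. The study describes the libraries as biological replicates, the labels do not name separate cultures, and p-values measure only the spread between these libraries. The totals of 800810 to 2760015 counts limit the precision of each value, and edgeR's biological coefficient of variation came to 0.166.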

Additional observations from a re-analysis of the deposited data

How the results depend on the processing

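The sign of Mir30d, Mir30a, Mir30e, Mir30b, Mir384 and the joined row held in all 17 alternatives tried for each, and that of the share in all 10. With 3 libraries a group, changes near the fold threshold are the limit: 1 member was called, and 0 under DESeq2's size factors, with a mean count of at least 50 and with DESeq2. With an adjusted p of at most 0.05 alone there were 2 members, and 1 with upper-quartile factors, with no filter and with the lane as a term. Leaving out each library gave 1 to 2 of these members and 1 called member each time, log2 fold changes of -0.68 to -0.63 for Mir30d and of -0.46 to -0.38 for the joined row (adjusted p 0.015 to 0.044, edgeR), and a share lower by -0.30 to -0.28 percentage points.

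Values of the Mir30c rows crossed 0. Mir30c-1 was at 0.067 with DESeq2's size factors, 0.065 with upper-quartile factors, 0.074 with a mean count of at least 50, 0.065 with DESeq2, 0.25 with the lane, 0.026 when joined with Mir30c-2 and 0.019 with DESeq2 on every row with a count, a setting chosen after seeing the data like miR-30c counted once. Leaving out each library gave -0.093 to 0.10 for Mir30c-1 and -0.027 to 0.15 for Mir30c-2, which was at -0.028 with library size alone. The cause was not tested. The scaling moved the median of all rows from -0.0077 with TMM to 0.067 with DESeq2's size factors, -0.088 with library size alone and 0.10 with DESeq2 on every row. DESeq2 on every row called Mir30d (-0.64).

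With the replicate block no call of a member changed: the log2 fold change was -0.67 for Mir30d (adjusted p = 0.00093, edgeR), -0.46 for Mir30a, -0.43 for the joined row, and the paired share differed by -0.29 points (exact sign-flip p = 0.25, the smallest possible). Calls over the table were 48, and 87 with the block, 29 with the lane (1 library a group) and 28 without control replicate 1.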
